A study of Mus musculus with 6 samples.

Results

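Genomic imprinting is the parent-of-origin silencing of a gene, set by DNA methylation laid down in the egg or the sperm, so that only the maternal or only the paternal copy is transcribed. Imprinted genes lie in clusters, each governed by a methylated control region and often by a long noncoding RNA, and many of them set fetal growth, placental function and the exit of precursor cells from division. Ipw is a noncoding RNA transcribed from the paternal copy of the Prader-Willi and Angelman syndrome region, which the mouse carries on chromosome 7. The group described here is 40 imprinted genes: Ipw with its region, and the main genes of the Kcnq1, Peg3, Dlk1-Meg3, Peg10 and Gnas clusters and of other imprinted loci. It was assembled after Ipw was seen among the largest falls in Pax2 null cells, so the genotype difference of Ipw chose the group and is given as a description. Its interval and its call below come from that same contrast and support nothing. The remaining genes were listed for being imprinted. A probe set, the group of array probes summarised into 1 value, counted as a member when the platform annotation gave it exactly 1 symbol and that symbol was listed. This gave 103 probe sets for 38 of the 40 genes, of 45037 probe sets for 18193 genes in the whole series. Of the 38 genes, 16 had 1 probe set and 22 had several. H19 was measured only by a probe set that the annotation shares with Mir675, and Dio3 had no listed probe set.

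The samples were cells carrying enhanced green fluorescent protein (EGFP), sorted by fluorescence from the dissected intermediate mesoderm of mouse embryos at E11.5, the tissue that forms the kidney and its duct. Pax2 is a paired-domain transcription factor that this tissue needs to form a kidney. There were 3 samples of Pax2 heterozygotes, whose titles give the genotype EGFP/+, and 3 of Pax2 nulls, with EGFP/EGFP. All 6 samples carried at least 1 EGFP allele and no wild-type sample was used here, so the comparison is null against heterozygote, and the number of EGFP alleles differed along with the genotype. cDNA amplified from 10 ng of total RNA per sample was hybridised to a 1-colour Affymetrix mouse array, and each deposited value is a log2 level. The labels do not say whether samples came from separate embryos, pools or litters, so standard errors measure the spread between samples, which may be technical. Pax2 itself is not analysed here, so it gives no check of the labels. In bulk samples of this kind, fewer cells of a type and less RNA per cell cannot be told apart.

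The 6 arrays had medians between 6.12 and 6.24, and arrays of the same genotype correlated at 0.976 to 0.991 over all probe sets. The array number, 3 per genotype, limits the precision. Heterozygote 1 and null 3 stood apart from the other arrays in the bacterial hybridisation controls, with mean bioB values of 10.52 and 10.55 against 7.23 to 8.20. The X-inactivation RNA Xist, itself monoallelic, was at 4.02 in null 1 and at 8.84 to 11.69 in the other 5 arrays, and the Y-linked Eif2s3y was at 3.92 in heterozygote 2 and at 7.90 to 8.95 in the other 5. Heterozygotes 1 and 3 and nulls 2 and 3 were thus high in both, as a mix of male and female cells would be. Null 1 was high in Eif2s3y alone and heterozygote 2 in Xist alone. Sex therefore differed between arrays and was not in the fit. Some markers of duct, mesenchyme, stroma and neurons differed with genotype. Of 14 measured duct markers, 4 were lower in nulls in the limma fit (Ret, Gata3, Lhx1 and Calb1) and 0 higher, with 0 dim, and their summed linear level ranged from 12687 to 18038 in heterozygotes and from 9635 to 12489 in nulls. Of 13 stromal markers 6 were higher and 1 (Meox2) lower, with 0 dim, and the summed level was 5434 to 7759 in heterozygotes and 13987 to 16487 in nulls. The 11 metanephric mesenchyme markers had 2 lower (Gdnf and Sall1) and 0 higher, with sums of 11071 to 16745 and 9322 to 13799. Neuronal markers had 1 of 12 higher (Nefm), with sums of 1770 to 2304 and 2529 to 3429 and with Lhx5 and Gad1 dim. Of 9 macrophage, 8 endothelial and 6 erythroid markers, 0 passed in the limma fit, while 5 macrophage, 0 endothelial and 0 erythroid markers had an unadjusted p under 0.05. With arrays matched in pairs by their bacterial controls as a block, 2 macrophage markers were called (Tyrobp and Laptm5), 5 of the mesenchyme, 4 of the neuronal, 10 of the stromal and 6 of the duct markers. Those of mesenchyme and duct were lower in nulls, except Cited1 (1.76) and Tfap2b (1.19), which were higher. Those of macrophages, neurons and stroma were higher, except the neuronal Elavl4 (-1.54) and the stromal Meox2 (-1.77), which were lower. Macrophage sums were 678 to 1306 in heterozygotes and 1401 to 3386 in nulls, with the defining gene Adgre1 dim, while endothelial sums were 310 to 437 and 363 to 469, with Pecam1, Tek, Sox17 and Esam dim. The part of these markers in the results on imprinted genes was not tested.

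Ipw, the gene that led to the choice of the group, was 10.8-fold lower in nulls on its 1 probe set. Of the other members, 1 passed in the limma fit without covariates: the probe set 1423422_at of Asb4 rose 2.10-fold. A probe set was called when its Benjamini-Hochberg adjusted p over all 45037 probe sets was under 0.05. This made 2 of 103 members called, with the place of Ipw among them fixed by the choice, beside 0.691% of all probe sets (0.391% higher and 0.300% lower in nulls); because the contrast chose the group, nothing is read from the comparison. The members' differences, null minus heterozygote, had a median of 0.08 over probe sets, against -0.01 over all probe sets, and 59 were above 0 and 44 below, against 47.4% above 0 over all probe sets. Without heterozygote 1 the median was -0.04, with 46 above 0 and 57 below, and without null 1 it was 0.00, with 52 above 0 and 51 below. Probe sets of 1 gene are not independent. With the brightest probe set of each gene, the median was 0.02 over the 38 genes and -0.02 over all genes. Of the 38 genes, 20 were above 0 and 18 below, against 46.4% above 0 over all genes. Of the 103, 85 lay within 0.5 log2 units of 0, against 90.4% of all probe sets. The arrays of the genotypes did not overlap in 13 members, 9 higher and 4 lower in nulls, where 11.7% of all probe sets did not overlap (5.56% higher and 6.13% lower). A 95% interval that excluded 0, which equals an unadjusted p under 0.05, was found for 10 members, Ipw among them by the choice, and for 7.66% of all probe sets. The expressed copy of each gene came from a fixed list and was not measured, since array values do not separate the parental copies. Ube3a was listed as maternal and Inpp5f as paternal, with all their probe sets. By listed copy, 51 probe sets of 20 paternally expressed genes had a median difference of 0.01, and 45 of 16 maternally expressed genes had 0.11. Of the 45, 17 were of Meg3, Rian and Mirg. With the brightest probe set of each gene the medians were 0.02 (paternal) and 0.05 (maternal, 8 genes above 0 and 8 below). Over probe sets, the maternal median was -0.07 without heterozygote 1 and -0.02 without null 1. The paternal median over probe sets ran from -0.02 to 0.09 over the omissions of 1 array. Of 22 genes with several probe sets, 11 had differences of both signs. Of the 103, 18 were dim, with a mean below 4.81 (the 33rd percentile over the array), where differences are compressed towards 0.

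**Figure D1:**
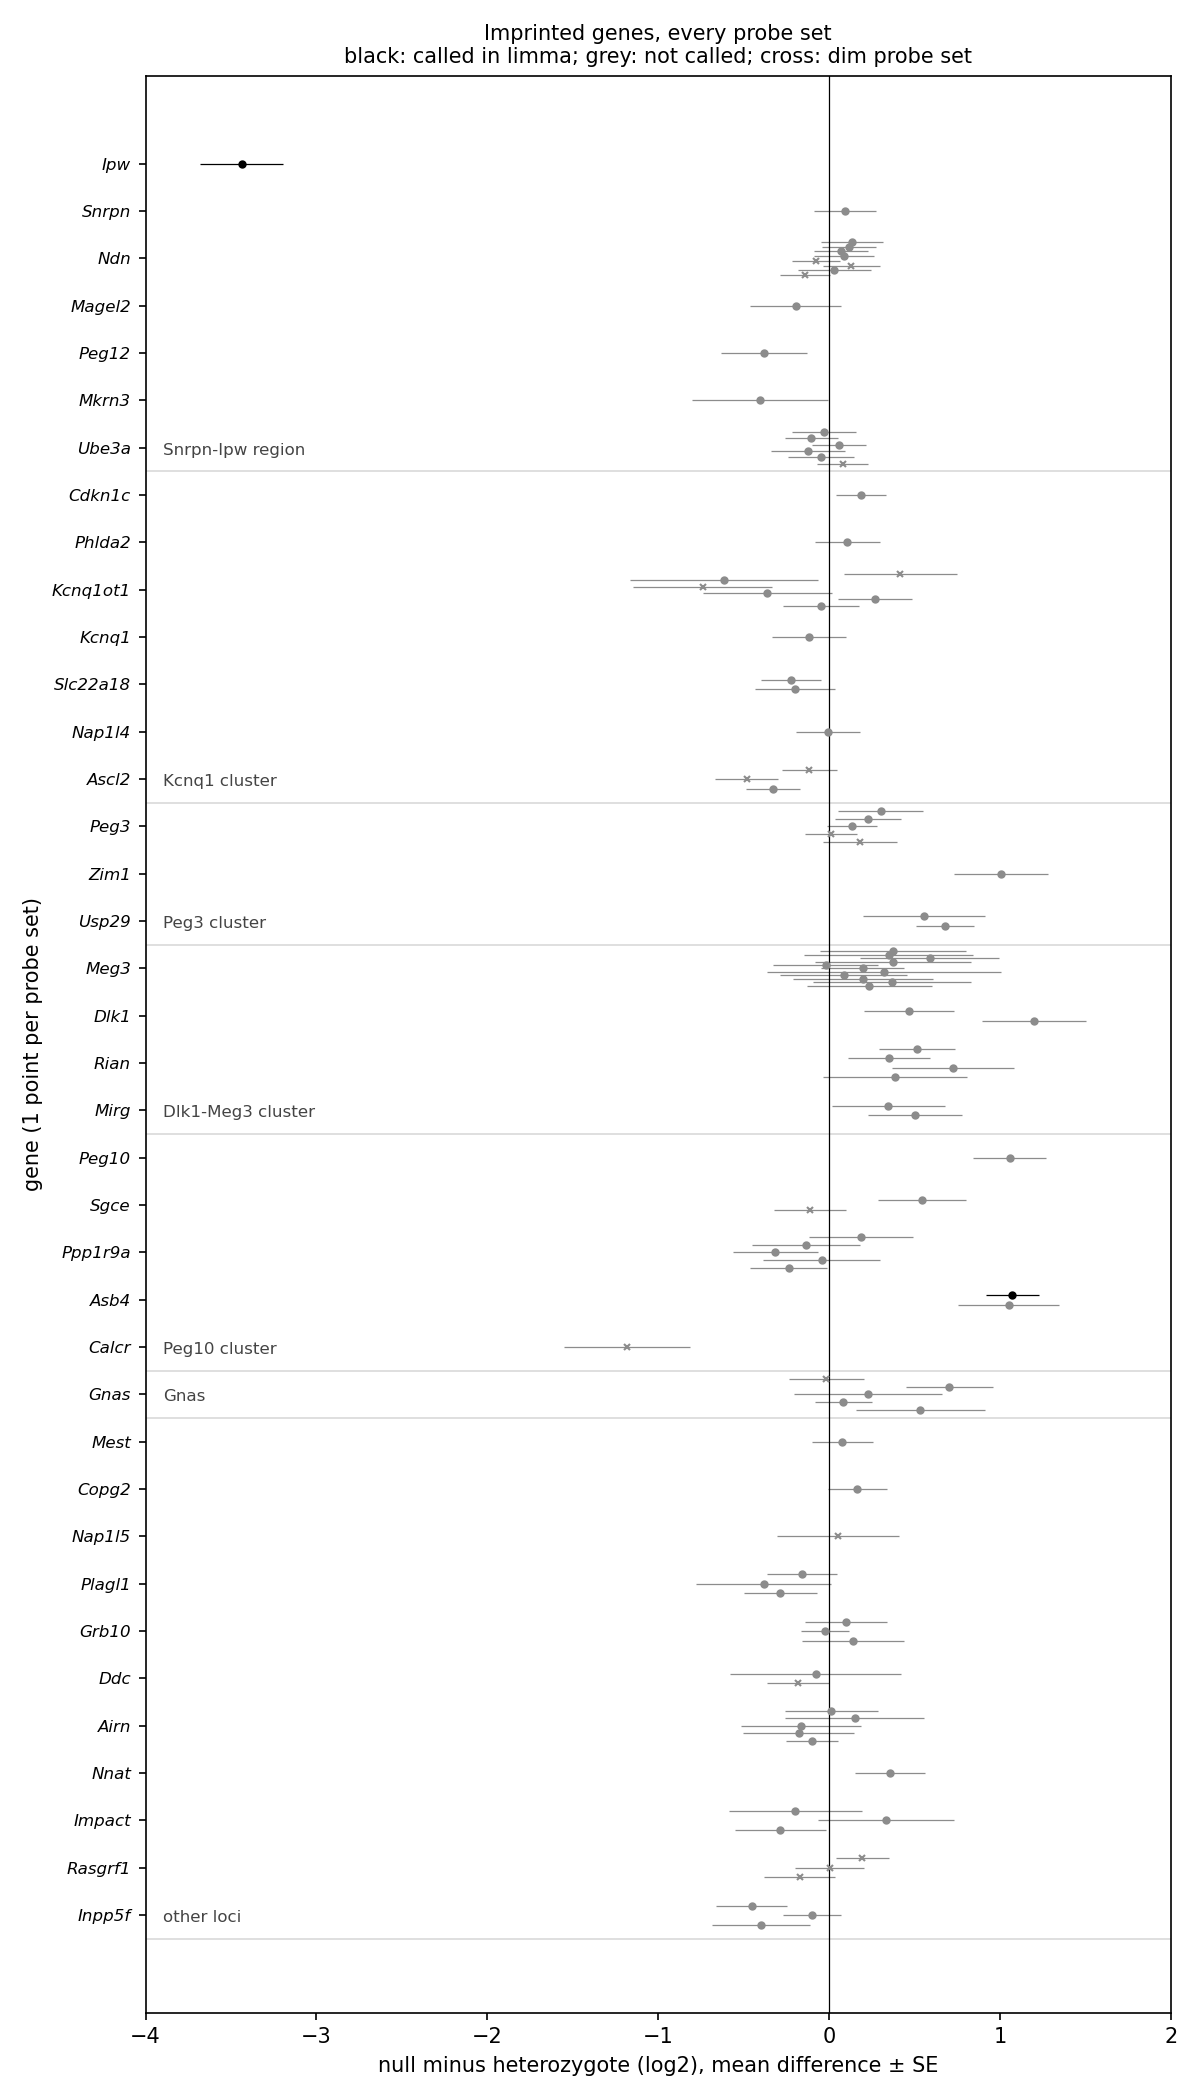
Difference of every imprinted probe set between nulls and heterozygotes (log2, x axis, mean difference with its SE, 3 arrays per genotype), by gene and cluster (y axis), with called probe sets in black, others in grey and dim ones as crosses. Ipw stands at -3.44, while 85 of the 103 probe sets lie within 0.5 of 0.

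In the Prader-Willi region, Ipw was far lower in nulls, and the 6 other measured genes did not pass. Ipw was measured by 1 probe set (1431229_at), so no other probe set could be set beside it. It was at 7.15, 7.85 and 7.16 in heterozygotes 1 to 3 and at 3.78, 3.81 and 4.26 in nulls 1 to 3. Every null array lay below every heterozygote array by more than 2 log2 units, and all 3 null values were in the dim range. The means were 7.39 ± 0.40 and 3.95 ± 0.27 (SD, n = 3), a difference of -3.44 ± 0.24 (SE), with a 95% interval of -4.01 to -2.87. Since the null level lies in the dim range, the fold may be understated. Over the alternatives run, the difference lay between -3.59 and -3.21. Matching the arrays by their bacterial controls put heterozygote 1 with null 3, heterozygote 2 with null 1 and heterozygote 3 with null 2, and Ipw was lower in the null of each pair, by -2.89, -4.07 and -3.35.

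Its protein-coding neighbours in the same paternally expressed domain gave smaller differences with intervals that cross 0. Snrpn, a core protein of the spliceosome in brain, was at 4.69, 4.69 and 4.99 in heterozygotes and 4.70, 5.12 and 4.83 in nulls on its unshared probe set, a difference of 0.09 ± 0.18 with an interval of -0.32 to 0.51. Ndn, which encodes necdin, a MAGE-family protein that restrains cell division, had 8 probe sets, 3 of them dim, with differences from -0.14 to 0.13. Its brightest was at 11.60, 11.17 and 11.30 in heterozygotes and 11.09, 11.33 and 11.75 in nulls, a difference of 0.03 ± 0.22 (-0.47 to 0.53). The genotypes overlapped in both genes.

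Magel2, another MAGE-family gene, was at 6.56, 6.61 and 7.02 in heterozygotes and 5.98, 6.81 and 6.82 in nulls, a difference of -0.20 ± 0.27. Peg12, a relative of the Frat proteins that bind the kinase GSK3, was at 7.82, 7.17 and 7.40 and at 6.69, 7.09 and 7.47, a difference of -0.38 ± 0.25. Mkrn3, a RING-finger protein known for restraining puberty, was at 5.83, 4.48 and 4.90 and at 4.06, 4.74 and 5.19, a difference of -0.41 ± 0.40. In all of these genes some null arrays lay within the heterozygote range. Ube3a, the ubiquitin ligase lost in Angelman syndrome and expressed from the maternal copy in neurons, had 6 probe sets with differences from -0.13 to 0.08, and its brightest was at 9.99, 10.46 and 10.44 in heterozygotes and 10.41, 10.19 and 10.20 in nulls, a difference of -0.03 ± 0.19 (-0.46 to 0.40).

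**Figure D2:**
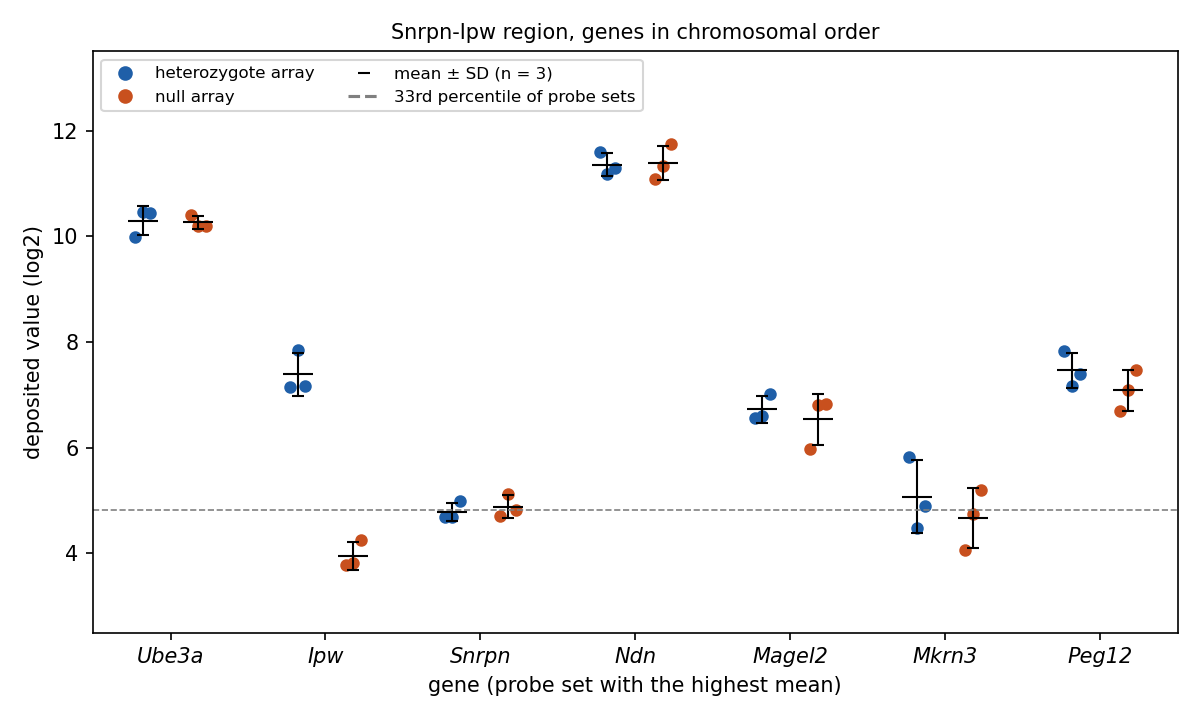
Log2 value of each array (points) with mean ± SD (3 arrays per genotype) for the genes of the Ipw region, at the brightest probe set of each gene, and a dashed line at the 33rd percentile of all probe sets, 4.81. In Ipw alone of these 7 genes the genotypes do not overlap, with nulls at 3.78 to 4.26 and heterozygotes at 7.15 to 7.85. Snrpn lies near the dashed line, with means of 4.79 in heterozygotes and 4.88 in nulls.

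The measured genes next to Ipw were compared by a rule chosen after the values were seen, the 6 nearest named genes on each side with their brightest probe sets. Of these 12, 0 were called by limma, 0 had an unadjusted p under 0.05 and 0 passed with the matched pairs as a block, with differences from -0.57 to 1.17. But 5 of the 12 were dim, where differences are compressed towards 0, so a fall in them could hardly have shown. Snhg14, the long host transcript of the region's small nucleolar RNAs, was at 7.88, 8.04 and 7.98 in heterozygotes and at 8.04, 6.64 and 7.73 in nulls, a difference of -0.50 ± 0.34. Null 2 alone lay well below the heterozygotes there. Gm26504, on the other side, gave the largest difference of the 12, 1.17 ± 0.76, and Atp10a, a phospholipid transporter gene, the lowest, -0.57 ± 0.38.

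The annotated start of Ipw is shown because of its low null level, beside that of Ndn, whose interval spans 0. Both are RefSeq windows on GRCm38.p6 from 250 bases before to 50 after the start, printed in the direction of the gene with CpG dinucleotides, the sites of DNA methylation, in capitals. Ipw lies at chr7:59678829-59679128 on the minus strand and Ndn at chr7:62348027-62348326 on the plus strand.
Ipw: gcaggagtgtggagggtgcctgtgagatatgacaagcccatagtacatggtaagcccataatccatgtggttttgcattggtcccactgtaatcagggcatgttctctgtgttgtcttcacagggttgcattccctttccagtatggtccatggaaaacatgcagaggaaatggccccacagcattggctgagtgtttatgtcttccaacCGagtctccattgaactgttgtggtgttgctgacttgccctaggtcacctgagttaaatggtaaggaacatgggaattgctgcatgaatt
Ndn: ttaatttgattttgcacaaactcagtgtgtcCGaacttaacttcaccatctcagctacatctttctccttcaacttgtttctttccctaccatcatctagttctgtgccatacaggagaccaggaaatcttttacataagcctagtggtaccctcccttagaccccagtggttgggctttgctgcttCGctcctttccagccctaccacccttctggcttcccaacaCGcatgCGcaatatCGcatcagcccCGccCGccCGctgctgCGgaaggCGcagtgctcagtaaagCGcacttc
The Ipw window held 1 CpG and the Ndn window 11, against a median of 7 over 32851 windows of this length, of which 14.1% held at most 1. Windows were found for 33 of the 40 listed genes, 47 in all, with a median of 13 CpG. The core GTCACGC bound by Pax paired domains, searched on both strands, was in 0 of the 47 windows and in 2.09% of all windows. The methylated-site motif TGCCGC of ZFP57, a zinc-finger protein that maintains imprints, was in 11 of the 47 (23.4%) and in 11.6% of all windows. The searched motifs do not overlap each other. Windows of 1 gene can overlap, as at Mest, where the same sites put overlapping windows into the count. The motif holds a CpG, and the member windows had a higher median CpG count than all windows. The 2 shares are thus not like for like, and nothing is read from them. These are matches of letters only.

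In the Peg10 cluster of chromosome 6, 5 of 11 probe sets were above 0 and 6 below, with a median of -0.04 that ran from -0.11 to 0.23 over the omissions of 1 array. Ppp1r9a alone supplied 5 of the 11. With the brightest probe set of each gene the median was 0.54, with 3 genes above 0 and 2 below. Of the 11 probe sets, 1 passed, of the maternally expressed Asb4, and the interval excluded 0 in 4, of Peg10, Asb4 and Calcr. Asb4, an ankyrin-repeat protein of a ubiquitin ligase, was at 9.34, 9.14 and 9.07 in heterozygotes and 10.30, 10.32 and 10.15 in nulls on 1423422_at. All nulls were above all heterozygotes, at a difference of 1.07 ± 0.15 (0.71 to 1.43). The nulls were higher in each matched pair, by 0.81, 1.16 and 1.25. The other Asb4 probe set, 1433919_at, was at 9.49, 8.56 and 8.61 and at 9.59, 9.95 and 10.29, with heterozygote 1 just below null 1, a difference of 1.05 ± 0.30 (0.36 to 1.74) that did not pass. The call of 1423422_at held without heterozygote 1 and was lost without heterozygote 2, heterozygote 3, null 1, null 2 or null 3, the difference then being 1.05, 1.01, 1.05, 1.04 and 1.13.

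Peg10, a gene derived from a retrotransposon and needed for the placenta, was at 9.61, 9.53 and 8.94 in heterozygotes and 10.55, 10.26 and 10.43 in nulls, with every null above every heterozygote. The difference was 1.06 ± 0.21 (0.56 to 1.55), or 2.08-fold, and was not called. Sgce, which encodes epsilon-sarcoglycan of the muscle membrane complex and starts beside Peg10, was at 8.51, 7.52 and 7.98 and at 8.34, 8.65 and 8.65, a difference of 0.54 ± 0.26 (-0.06 to 1.15) with null 1 inside the heterozygote range. Its other probe set was dim, at -0.11 ± 0.21.

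The 5 probe sets of Ppp1r9a, which encodes the actin-binding neurabin, ranged from -0.31 to 0.19, and the brightest gave -0.04 ± 0.34. Calcr, the calcitonin receptor, was dim: 5.55, 4.29 and 4.27 in heterozygotes and 3.26, 3.37 and 3.94 in nulls. The arrays did not overlap, at a difference of -1.18 ± 0.37 (-2.04 to -0.33) that was not called, and heterozygote 1 alone was above the dim limit. With the matched pair as a block, 772 probe sets were called (1.71%), and 6 members: Ipw, the bright Dlk1 probe set, Peg10, both Asb4 probe sets and Calcr. The pairing was found in the control probe sets and is not in the labels.

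The RefSeq windows at both annotated starts of Asb4 are printed for the gene that rose, at chr6:5383136-5383435 and chr6:5390160-5390459 on the plus strand, with CpG in capitals as above.
Asb4, upstream start: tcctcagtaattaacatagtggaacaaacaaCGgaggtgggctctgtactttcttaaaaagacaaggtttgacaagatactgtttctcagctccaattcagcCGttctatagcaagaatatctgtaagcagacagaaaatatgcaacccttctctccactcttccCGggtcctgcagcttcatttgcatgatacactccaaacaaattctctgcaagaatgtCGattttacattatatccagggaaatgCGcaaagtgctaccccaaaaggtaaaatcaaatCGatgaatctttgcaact
Asb4, downstream start: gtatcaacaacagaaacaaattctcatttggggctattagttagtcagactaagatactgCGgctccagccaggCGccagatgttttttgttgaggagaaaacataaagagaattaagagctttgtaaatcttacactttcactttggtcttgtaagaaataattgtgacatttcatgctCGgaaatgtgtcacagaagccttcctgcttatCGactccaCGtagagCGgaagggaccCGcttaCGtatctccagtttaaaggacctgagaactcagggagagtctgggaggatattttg
They held 6 and 8 CpG, near the median of 7 over all windows. Of the 12 measured genes nearest to Asb4, chosen by the same rule as for Ipw, 0 were called by limma, 2 had an unadjusted p under 0.05 (Peg10 and Pon3) and 1 passed with the pair block (Peg10), with differences from -0.29 to 1.06, the upper being Peg10. Of these neighbours, 3 were dim. Pon3, a lactone hydrolase of the paraoxonase family, was at 5.62, 4.73 and 4.78 in heterozygotes and 5.75, 5.77 and 6.15 in nulls, a difference of 0.85 ± 0.27 with no overlap. Its neighbour Pon2 differed by 0.28 ± 0.18, and Pdk4, on the other side of Asb4, by -0.19 ± 0.24.

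**Figure D3:**
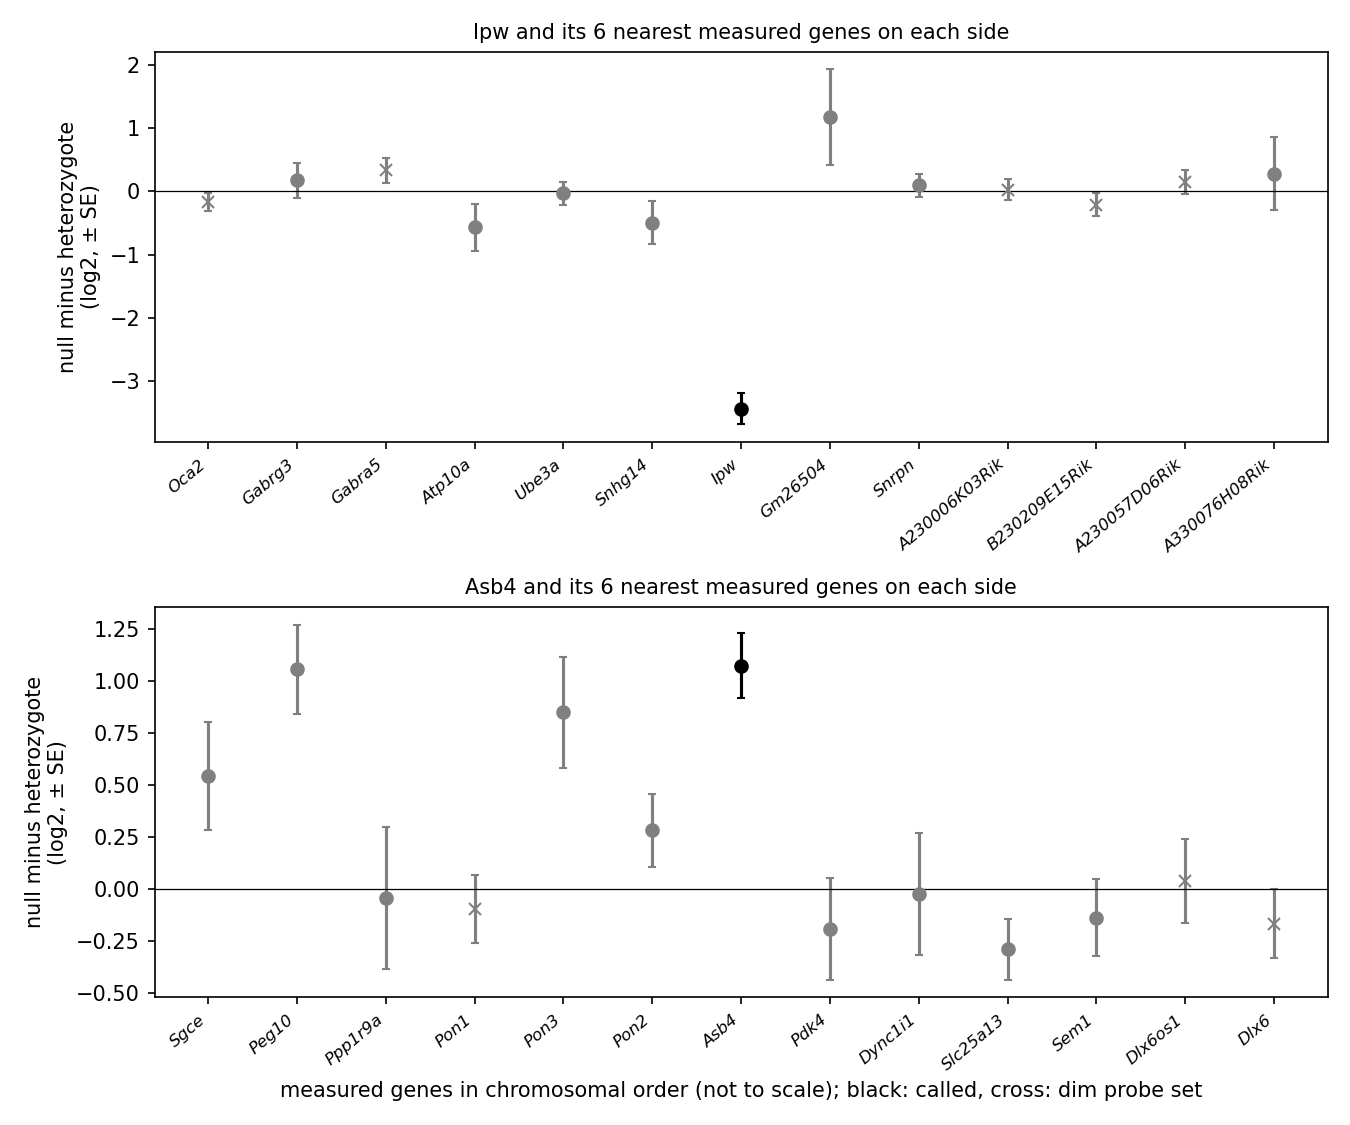
Difference between nulls and heterozygotes (log2, mean difference with its SE, 3 arrays per genotype) for Ipw and Asb4 and the 6 nearest measured genes on each side, in chromosomal order. Neither gene has a called neighbour, and the neighbours range from -0.57 to 1.17 around Ipw and from -0.29 to 1.06 around Asb4. Dim neighbours, 5 around Ipw and 3 around Asb4, are shown as crosses.

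In the Dlk1-Meg3 cluster of chromosome 12, 18 of 19 probe sets were above 0, with a median of 0.37. This tally rests on heterozygote 1: without it 9 were above 0 and 10 below, with a median of 0.00, and the brightest Meg3 and Rian probe sets stood at -0.21 and -0.04. Without null 1 there were 14 above 0 and 5 below, with a median of 0.18. On its brightest probe set Dlk1 stood at 1.02 without heterozygote 1. None was called by limma, and the interval excluded 0 in 1, of Dlk1. Dlk1, a transmembrane relative of the Notch ligands that is expressed from the paternal copy and holds precursor cells back from differentiating, was at 10.29, 10.63 and 11.04 in heterozygotes and 11.73, 12.43 and 11.40 in nulls on 1449939_s_at. Every null was above every heterozygote, at a difference of 1.20 ± 0.30 (0.50 to 1.91), or 2.30-fold, and by 1.11, 1.10 and 1.39 within the matched pairs. The other Dlk1 probe set was at 7.43, 6.80 and 6.50 and at 7.10, 7.57 and 7.47, a difference of 0.47 ± 0.26 with null 1 below heterozygote 1.

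The maternally expressed noncoding RNAs of the cluster spread widely between arrays of the same genotype. Meg3, a long noncoding RNA with growth-suppressing activity, had 11 probe sets with differences from -0.02 to 0.59. The brightest was at 9.48, 11.16 and 11.26 in heterozygotes and 11.36, 10.67 and 10.97 in nulls, a difference of 0.37 ± 0.46. Heterozygote 1 was lower than the other 5 arrays by more than 1 log2 unit. On 1436713_s_at the values were 6.99, 9.02 and 8.60 and then 9.59, 7.22 and 8.76, so heterozygote 1 and null 2 were both low.

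Rian, the host of small nucleolar RNAs, had 4 probe sets with differences from 0.35 to 0.72. Its brightest was at 10.03, 11.32 and 11.31 in heterozygotes and 11.90, 11.21 and 10.72 in nulls, a difference of 0.39 ± 0.42. On 1427580_a_at the genotypes did not overlap, at 9.58, 10.16 and 10.16 and at 10.77, 10.30 and 10.37, a difference of 0.52 ± 0.22. Mirg, a host of microRNAs, gave 0.35 ± 0.33 and 0.50 ± 0.27, and its brighter probe set was at 7.23, 8.03 and 7.82 in heterozygotes and 8.64, 8.02 and 7.93 in nulls. Heterozygote 1 was the lowest of all arrays there, as it was in 14 of the 17 probe sets of Meg3, Rian and Mirg, against 21.4% of all probe sets. Null 2 was the lowest in the other 3, all of Meg3, and the highest was null 1 in 12 and null 3 in 5. The median SD within a genotype was 0.58 over these 17 probe sets, 0.28 over the other 86 members and 0.26 over all probe sets. The 17 probe sets share the same 6 samples and neighbouring transcripts, so their common order is a single observation of these arrays. Heterozygote 1 was also the lowest array in 31 of the other 86 members (36.0%). Among these were 3 of the 6 probe sets of Kcnq1ot1 and 3 of the 5 of Airn. Over all probe sets it was more often the lowest, and more often the highest (25.5%), than any other array.

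**Figure D4:**
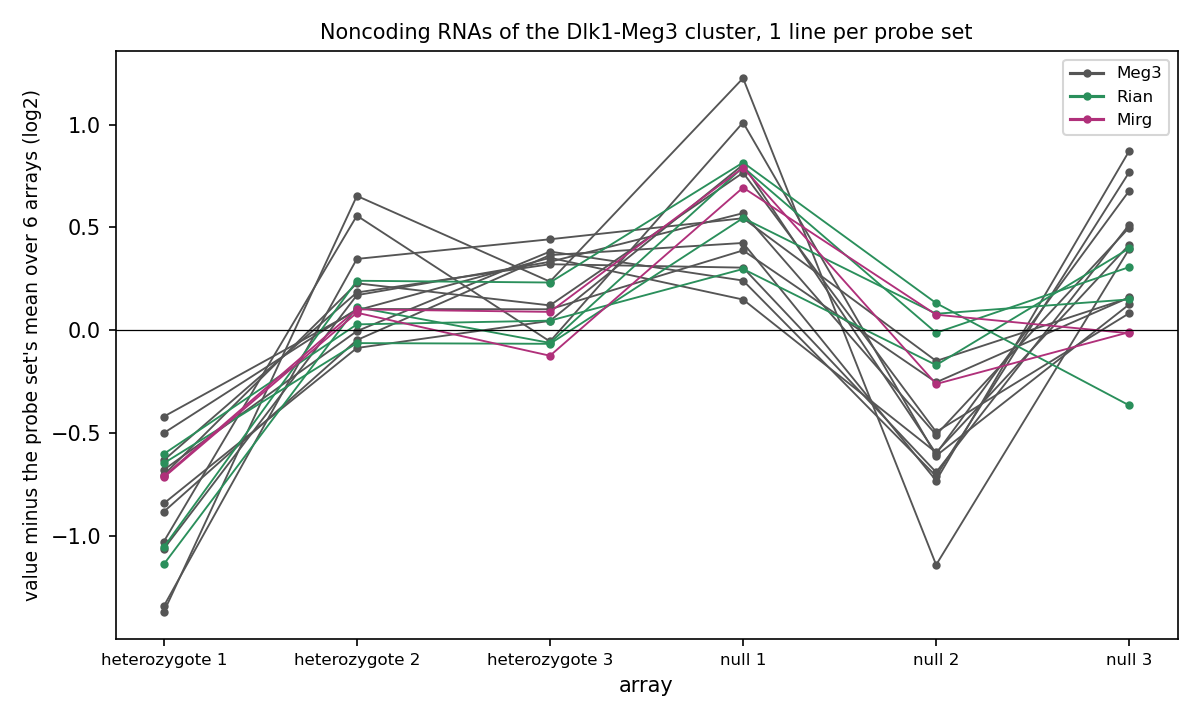
Value of each of the 17 probe sets of Meg3, Rian and Mirg in each array, as the deviation from that probe set's mean over the 6 arrays (log2, 1 line per probe set). Heterozygote 1 is lowest in 14 of the 17 and null 1 highest in 12.

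In the Peg3 cluster of chromosome 7, all 8 probe sets were above 0, with a median of 0.26. Without heterozygote 1 the median was 0.09 and without null 2 it was 0.17. None was called by limma, and the interval excluded 0 in 2, of Zim1 and Usp29. Zim1, a zinc-finger gene expressed from the maternal copy, was at 7.21, 8.16 and 8.12 in heterozygotes and 9.04, 8.78 and 8.69 in nulls. All nulls lay above all heterozygotes, at a difference of 1.0 ± 0.27 (0.37 to 1.64), and leaving out single arrays gave values from 0.69 upwards. Usp29, a paternally expressed deubiquitinase that shares its promoter region with Peg3, was at 9.27, 9.57 and 9.18 and at 10.06, 10.10 and 9.89 on 1427551_at, again without overlap, a difference of 0.68 ± 0.17 (0.28 to 1.07). Its other probe set gave 0.56 ± 0.35 with overlap.

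Peg3 itself, a paternally expressed zinc-finger protein tied to growth and maternal care, had 5 probe sets, 2 of them dim, with differences from 0.01 to 0.30. The brightest was at 12.13, 12.38 and 12.30 in heterozygotes and 12.42, 12.35 and 12.43 in nulls, a difference of 0.13 ± 0.15 (-0.21 to 0.48) with null 2 inside the heterozygote range. The difference between Usp29 and Peg3 was not tested. Of the 12 measured genes nearest to Usp29, 0 were called by limma and 1 (Zim1) had an unadjusted p under 0.05, with differences from -0.45 to 1.0. Of the 12 nearest to Dlk1, 0 were called and 1 (Dio3os) had an unadjusted p under 0.05, with differences from -0.55 to 0.50. Dim genes made up 3 of those nearest to Usp29 and 3 of those nearest to Dlk1, Dio3os among them.

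**Figure D5:**
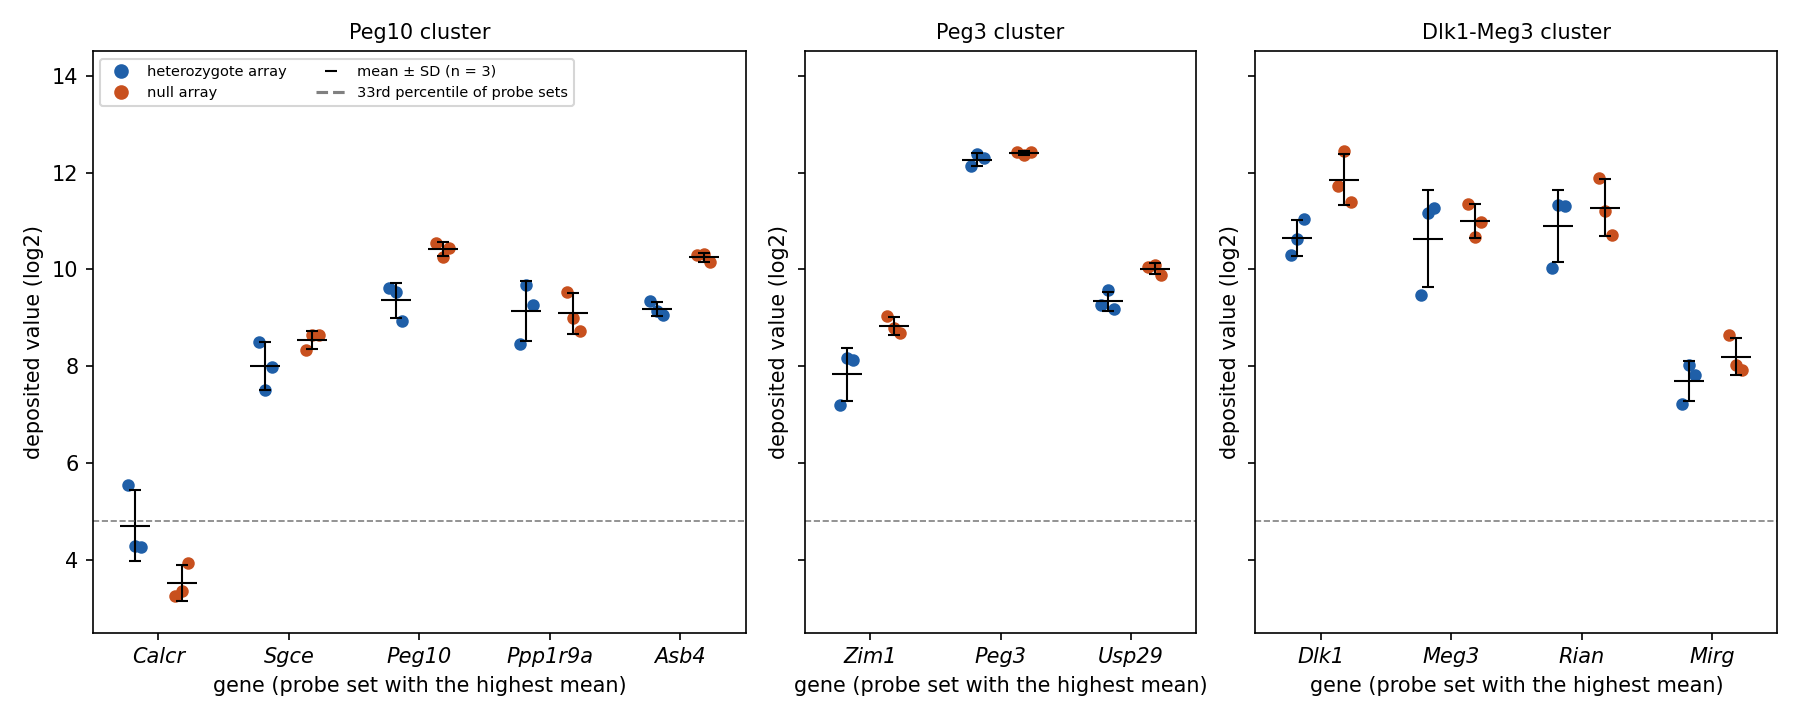
Log2 value of each array (points) with mean ± SD (3 arrays per genotype) for genes of the Peg10, Peg3 and Dlk1-Meg3 clusters, at the brightest probe set of each gene. The nulls lie above the heterozygotes without overlap in Peg10, Asb4, Zim1, Usp29 and Dlk1, and the genotypes overlap in Meg3, where heterozygote 1 is at 9.48.

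In the Kcnq1 cluster, 11 of 15 probe sets were below 0, with a median of -0.12, which was -0.02 without null 3 and -0.22 without null 2. None was called by limma, and the interval excluded 0 in 1, a dim probe set of Ascl2. Cdkn1c, the maternally expressed inhibitor of cyclin-dependent kinases p57Kip2, was at 12.20, 12.21 and 12.26 in heterozygotes and 12.37, 12.55 and 12.32 in nulls. The arrays did not overlap, but the difference was 0.19 ± 0.15 (-0.15 to 0.53). Ascl2, a basic helix-loop-helix factor of the trophoblast, was at 5.92, 5.93 and 5.98 and at 5.71, 5.72 and 5.41, also without overlap, a difference of -0.33 ± 0.16 (-0.69 to 0.04), and its 2 dim probe sets gave -0.12 and -0.48.

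Kcnq1ot1, the paternal antisense RNA that silences the cluster in cis, had 6 probe sets with differences from -0.74 to 0.42. Its brightest was at 7.37, 8.61 and 8.69 in heterozygotes and 8.33, 7.67 and 7.58 in nulls, a difference of -0.36 ± 0.38. Its probe sets thus did not share a direction, 4 lying below 0 and 2 above. Phlda2, which limits placental growth, differed by 0.11 ± 0.19, and the potassium channel gene Kcnq1 by -0.12 ± 0.22. The organic cation transporter gene Slc22a18 gave -0.22 ± 0.18 and -0.20 ± 0.23, and the histone chaperone gene Nap1l4 gave -0.01 ± 0.19. The genotypes overlapped in each of these last 4 genes.

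Gnas encodes the stimulatory G-protein alpha subunit and, from other promoters, imprinted isoforms of either parental copy. Its brightest probe set, 1450186_s_at, was at 12.33, 12.52 and 12.55 in heterozygotes and 12.64, 12.67 and 12.34 in nulls, a difference of 0.08 ± 0.17 (-0.30 to 0.47). The array does not say here which isoform each of the 5 probe sets reads, and their differences ran from -0.02 to 0.70. On 1427789_s_at the genotypes did not overlap, at 4.54, 4.90 and 5.12 and at 5.53, 6.0 and 5.14, a difference of 0.70 ± 0.26 (0.11 to 1.30) that was not called.

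The remaining 11 genes, with 26 probe sets, had differences from -0.45 to 0.36, 11 of them above 0. None was called by limma or had an interval that excluded 0, and the genotypes overlapped in all 26. Mest, a hydrolase-like gene of growing mesoderm, was at 12.49, 12.72 and 12.83 in heterozygotes and 12.82, 12.92 and 12.53 in nulls, a difference of 0.08 ± 0.18 (-0.34 to 0.49). Grb10, an adaptor that restrains insulin and growth-factor receptors, was at 12.17, 12.27 and 12.23 and at 12.26, 12.16 and 12.18, a difference of -0.02 ± 0.14 (-0.35 to 0.30), with 0.10 and 0.14 on its other probe sets. The arrays of the genotypes interleaved in both. Nnat, a small membrane protein of developing neural tissue, gave the highest difference of these genes: 11.69, 11.93 and 12.22 against 12.36, 12.51 and 12.04, or 0.36 ± 0.20.

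Inpp5f, a phosphoinositide phosphatase gene with an imprinted variant in brain, gave the lowest: 8.85, 8.61 and 9.04 in heterozygotes against 8.06, 8.42 and 8.66 in nulls, or -0.45 ± 0.21 (-0.94 to 0.03), with -0.10 and -0.40 on its other probe sets. Null 3 lay just above heterozygote 2. Plagl1, a zinc-finger factor of an imprinted gene network, gave -0.16, -0.38 and -0.29. The 5 probe sets of Airn, the antisense RNA that silences Igf2r in cis, ranged from -0.18 to 0.15.

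Ddc, which makes dopamine and serotonin, gave -0.08 ± 0.50 and -0.18 ± 0.18, and Copg2, a coat protein gene of transport vesicles, 0.16 ± 0.17. Impact, an inhibitor of the stress kinase Gcn2, gave -0.20, 0.33 and -0.29. Nap1l5 at 0.05 and the 3 probe sets of the Ras activator Rasgrf1 at 0.19, 0.00 and -0.17 were dim in these cells.

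Other imprinted genes and the machinery of imprinting were taken from fixed lists, with 1 probe set, the brightest, per gene, a unit of which 0.951% were called over 18193 genes. Of 37 measured imprinted genes outside the group, 1 rose and 0 fell in the limma fit, with a median difference of 0.01 and a range from -1.61 to 1.56. An unadjusted p under 0.05 was found for 7 of the 37, 4 higher and 3 lower, and for 9.36% of all genes. With the matched pairs as a block 3 were called, Dcn and, lower in nulls, the transcription factor gene Glis3 (-1.61) and the AMP deaminase gene Ampd3 (-1.0). The gene that rose was Dcn, the collagen-binding proteoglycan decorin, imprinted in placenta and also a member of the stromal list: 7.14, 7.13 and 7.27 in heterozygotes and 9.23, 8.41 and 8.59 in nulls, a difference of 1.56 ± 0.23 (adjusted p = 0.033, limma). Every null was more than 1 log2 unit above every heterozygote. Igf2, the growth factor that is a textbook imprinted gene, differed by 0.12 ± 0.20 (-0.35 to 0.60), and its clearing receptor Igf2r by 0.40 ± 0.15 (0.05 to 0.74; adjusted p = 0.542, limma).

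Of 25 measured regulators of imprints, such as the DNA methyltransferases, Uhrf1, Ctcf, Trim28 and Polycomb subunits, 0 were called by limma in either direction. Among them 0 had an unadjusted p under 0.05, with differences from -0.47 to 0.39 and a median of -0.15. Only 6 of the 25 were above 0, against 46.4% over all genes, and 2 (Dnmt3l and Dppa3) were dim. Of 17 measured genes from the chromosome 7 surroundings of the Prader-Willi region, 0 were called by limma and 1 had an unadjusted p under 0.05. Their differences ran from -1.04 to 0.44 with a median of 0.01, and 4 were dim.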

How the data were processed

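Expression was measured on 6 arrays, 3 per genotype. The deposited values are log2 intensities per probe set, which the authors made with RMA; RMA, affy and limma are named, without versions or settings, in the submitters' processing notes. RMA equalises the distribution of values between arrays, which hides differences in total RNA per cell, and it compresses differences between dim probe sets. Of 45101 probe sets, 64 array controls were left out; of the rest, 34945 had 1 gene symbol in the platform annotation, 932 several and 9160 were not listed.

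Nulls were set against heterozygotes by limma 3.58.1 under R 4.3.3 (a linear model per probe set with lmFit, moderated by eBayes; two-sided, Benjamini-Hochberg over 45037 probe sets, threshold 0.05, no covariates, no filter), after tests on simulated data. Means carry SDs and differences carry SEs and 95% intervals from the fit. The members, lists and alternatives were chosen with earlier results of these data known, so no p-value is printed for a member difference. The intervals, calls and counts of members under a threshold are descriptions of these data. Array values are given for each called member probe set and for the brightest probe set of most member genes. For Ppp1r9a, Phlda2, Kcnq1, Slc22a18, Nap1l4, Plagl1, Airn, Ddc, Copg2, Impact, Nap1l5 and Rasgrf1 the text gives only differences. The other probe sets named here, and the neighbouring genes, were chosen after their values were seen. List genes were named when called, and Igf2 and Igf2r were added after their values were seen. Sequences and motif counts come from RefSeq windows on GRCm38.p6, and gene order from RefSeq positions. The alternatives changed the unit, prior, filter, normalization, weights, block, threshold or arrays used.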

Additional observations from a re-analysis of the deposited data

How the results depend on the processing

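The Asb4 probe set was called under all alternatives but those without heterozygote 2, heterozygote 3, null 1, null 2 or null 3. Over the alternatives, the Ipw difference ran from -3.59 to -3.21 and the Asb4 difference from 1.01 to 1.15. All 1359 differences of members under an alternative moved by less than 1 SD of the replicates, but this was largely fixed in advance. The unit, prior, filter and block leave a difference unchanged. Omitting 1 of 3 arrays cannot move it by 1 SD. Only the normalization and weights could have done so, and no stability is read from the count. The count of calls over all probe sets, 311 as reported, was 650 with array weights, 772 with the matched array pair as a block and 516 at an adjusted p under 0.10, and ran from 65 to 413 when 1 array was left out. It was 65 without heterozygote 2, 67 without heterozygote 3, 70 without null 1, 117 without null 2, 123 without null 3 and 413 without heterozygote 1. The count among members, 2 as reported, was 6 with the pair block (4 higher and 2 lower), 3 with array weights, which added Peg10, and 1 to 2 when 1 array was left out. The pairs come from control probe sets, not from the labels. With 3 arrays per genotype and dim signals in 18 of 103 member probe sets, small differences were not detectable.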

Other observations

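Probe sets that the annotation shares between a listed gene and another gene were outside the group, and none of the 8 was called. H19, the maternally expressed noncoding RNA next to Igf2, shares its probe set with Mir675, the microRNA it hosts: 12.05, 12.16 and 12.34 in heterozygotes and 12.38, 12.49 and 12.21 in nulls, a difference of 0.18 ± 0.16 with overlap. Of the 6 probe sets shared by Snrpn and its overlapping partner Snurf, 4 were bright, and these differed by -0.10 ± 0.16, -0.06 ± 0.16, 0.14 ± 0.37 and -0.02 ± 0.17. The first of these was at 9.98, 9.68 and 9.72 in heterozygotes and 9.83, 9.57 and 9.68 in nulls, so on brighter probe sets too the Snrpn genotypes overlapped. The probe set shared by Airn and Igf2r differed by 0.12 ± 0.23.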
